A study of Mus musculus with 29 samples.

Results

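The 40 genes described here are established transcriptional targets of p53, the tumor suppressor protein encoded by Trp53, and their transcripts were measured in mouse liver after inhibition of MDM2. They were chosen by name from genes long known to be switched on by p53, leaving out Mdm2 and Cdkn1a, and all 40 were found among the 55421 genes of the count table. By known function they were placed in 5 classes: 8 genes of cell cycle arrest and growth control, 13 of apoptosis and death receptors, 6 of DNA repair and nucleotide supply, 5 of metabolism and mTOR or stress signalling, and 8 of growth factor signalling, adhesion and other roles.

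p53 is kept scarce in unstressed cells by MDM2, a ubiquitin ligase that binds its activation domain and sends it to the proteasome. Damage signals or a drug that occupies the p53 pocket of MDM2 free p53, which binds pairs of a short DNA decamer near its target genes and raises their transcription. Because Mdm2 is itself a target, the pathway restrains its own output, and the targets act in different directions: some halt the cell cycle, some open the mitochondrial or death receptor route to apoptosis, and others repair DNA or restrain growth signalling.

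RNA-seq was done on poly(A) RNA of whole liver from 27 mice, each a biological replicate, in 6 groups: 4 old vehicle females and 5 old HDM201 females, 4 old vehicle males and 5 old HDM201 males, and 5 young vehicle females and 4 young vehicle males. HDM201, an orally available small molecule that blocks binding of MDM2 to p53, was given by gavage at 10 mg/kg each day for 14 days, and vehicle mice received methylcellulose. Old mice were C57BL/6J, labelled 20 months for females and 24 months for males, and young mice were C57BL6/N, labelled 5 months, so age and substrain cannot be told apart, and old females and old males also differed in age. The labels name no transgene or engineered allele in any group, and the old vehicle mice are the reference of the HDM201 comparison and the test arm of the age comparison.

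Each mouse had 16485900 to 23570458 counts assigned to genes, with group medians of 16978125 to 20723553, and values are given as CPM, the count scaled to the size of its library, unless another scale is named. The summed level of 6 hepatocyte markers, Alb among them, was 76084 to 158625 CPM over the groups, with none of them at 0. In bulk tissue fewer cells of a type and less RNA per cell cannot be told apart. Genes were called at a Benjamini-Hochberg false discovery rate (FDR) under 0.05 over all genes tested, by the quasi-likelihood test of edgeR.

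The p53 decamer is the repeated unit of the p53 response element, and its presence near the start of the members is shown first. RefSeq promoter windows, 250 bases before to 50 bases after an annotated start site on GRCm38.p6, were held for 29 of the 40 members. A match to the p53 consensus decamer, which reads the same on both strands, was found in 8 of the 29 members (27.6%) and in 2582 of all 27025 genes with a window (9.55%). A pair of decamers separated by at most 13 bases was found in 0 of the 29 members and in 20 of the 27025 genes (0.074%). The 8 matches are printed 5′ to 3′ on the strand of the gene with 10 bases on each side, and capitals mark the decamer.

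By class, Ccng1, Gtse1 and Ier5 belong to cell cycle arrest and growth control, Bax, Aen and Ei24 to apoptosis, Polk to DNA repair and Sesn1 to stress signalling, and they are shown to set the letters of known p53 targets side by side.
Ccng1: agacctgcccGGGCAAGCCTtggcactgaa
Gtse1: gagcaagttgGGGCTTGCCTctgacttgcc
Ier5: ccccctttaaGAGCTTGCTCcgcgggacta
Bax: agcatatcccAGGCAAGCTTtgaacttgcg
Aen: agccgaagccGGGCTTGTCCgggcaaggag
Ei24: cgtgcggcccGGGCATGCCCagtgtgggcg
Polk: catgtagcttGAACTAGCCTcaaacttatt
Sesn1: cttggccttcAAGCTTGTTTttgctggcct

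In 6 of these windows the decamer lay before the start site, at bases -185 to -176 for Ccng1 (chr11:40755237-40755536, minus strand), -166 to -157 for Ier5 (chr1:155099587-155099886, minus strand) and -201 to -192 for Bax (chr7:45466849-45467148, minus strand). Ei24 carried it at -10 to -1 (chr9:36797285-36797584, minus strand), Polk at -231 to -222 (chr13:96519138-96519437, minus strand) and Sesn1 at -173 to -164 (chr10:41887189-41887488, plus strand). In Gtse1 (chr15:85859696-85859995, plus strand) it lay after the start, at 10 to 19. The Aen decamer fell into the windows of both of its start sites (chr7:78895677-78895976 and chr7:78895808-78896107, plus strand), at 11 to 20 from one and at -121 to -112 from the other. Polk (chr13:96542530-96542829), Sesn1 (chr10:41810324-41810623) and Gtse1 (chr15:85859457-85859756) each also had a window without a match. For Polk and Sesn1 that window was the one nearer the annotated start of the gene, so their matches lay at a start site inside the gene. No window of a member of the growth factor and adhesion class held a match (0 of 5). With 9.55% of all genes matching, so few windows cannot set this class apart. Enc1, Tm7sf3 and Pstpip2 of this class had no window and were not searched. A match is a description of the letters and was not measured as a binding site.

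The members spanned a wide range of liver levels, from abundant membrane proteins to transcripts near the limit of counting. Per kilobase of exon, Ninj1, an adhesion molecule that drives rupture of the plasma membrane in lytic cell death, was highest at 90.9 CPM per kb, followed by the desmosomal protein Perp at 56.0, the coenzyme A synthesis enzyme Pank1 at 27.5, the membrane protein Tm7sf3 at 25.9 and the stress kinase Plk3 at 23.9. Psrc1, a spindle protein, was lowest at 0.09 CPM per kb. Psrc1, Gtse1, Pmaip1 and the TRAIL receptor Tnfrsf10b had a mean under 1 CPM over all mice, so small differences in them could not be seen at this depth. Ei24, an endoplasmic reticulum protein linked to autophagy and apoptosis, had a mean CPM below that of Pank1 alone, at 209.7 (range 152 to 290.3) against 227 (range 144.9 to 342), but the version of its gene ID differed from the annotation used, so it was given no length and no place in the order per kilobase.

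One treated mouse stood apart in these genes, and its counts were also compared with those of its group beyond them. A chi-square statistic per degree of freedom compared the counts of 2 mice over genes with enough counts. It was 33.1 to 40.5 between old HDM201 female 1 and each other treated female, and 14.2 to 27.3 among those other females. Pairs within other groups reached 34.9 in old vehicle females, 64.0 in young females and 68.5 in old vehicle males. They reached 91.7 in old HDM201 males and 111.5 in young males, so distances of this size were not particular to this mouse. The share of all genes in which this mouse was the highest was not counted. Old HDM201 female 1 had the highest value of all 27 mice in 15 of the 40 members, whereas no other mouse was highest in more than 4. It also had the lowest value of all mice for 2 repair genes, Ddb2 (4.28 CPM) and Rrm2b (2.51 CPM). The 15 members were Ccng1, Plk2, Psrc1, Zmat3, Bax, Bbc3, Fas, Eda2r, Perp, Aen, Phlda3, Ei24, Sesn2, Gdf15 and Traf4. Within its own group it was highest in 23 of 40, made up of 7 of 8 arrest genes, 10 of 13 apoptosis genes, 1 of 6 repair genes, 3 of 5 metabolic genes and 2 of 8 genes of the growth factor class.

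The separation was wide in several classes. Phlda3, a repressor of AKT, read 16.5, 2.57, 3.12, 4.90 and 3.24 CPM in old HDM201 females 1 to 5, and Eda2r, a receptor of the TNF receptor family, read 6.42, 1.09, 0.707, 1.91 and 1.32 CPM. For the secreted stress hormone Gdf15 the 5 values were 42.6, 11.3, 8.36, 19.1 and 14.8 CPM. The cyclin Ccng1 read 64.6, 36.4, 32.3, 38.3 and 32.6 CPM in the same mice. Mouse 1 was far above the other treated females for all 4 genes, and for Ccng1 the other 4 were still above every old vehicle female (27.8, 27.1, 28.3 and 29.0 CPM).

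Other values of this mouse differed as well. Cdkn1a, the cell cycle inhibitor p21, was at 52.3 CPM in it and at 4.75 to 18.5 CPM in the other 4 treated females, and Mdm2 was at 38.1 CPM. The summed level of 8 immediate early genes was 211 CPM, the highest of its group, and that of 5 erythroid markers was 17.5 CPM, the lowest of its group. Its depth of 19819349 counts lay within the range of the other mice. The part of these features in its p53 target values was not tested, and results in treated females are given with and without this mouse.

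**Figure D1:**
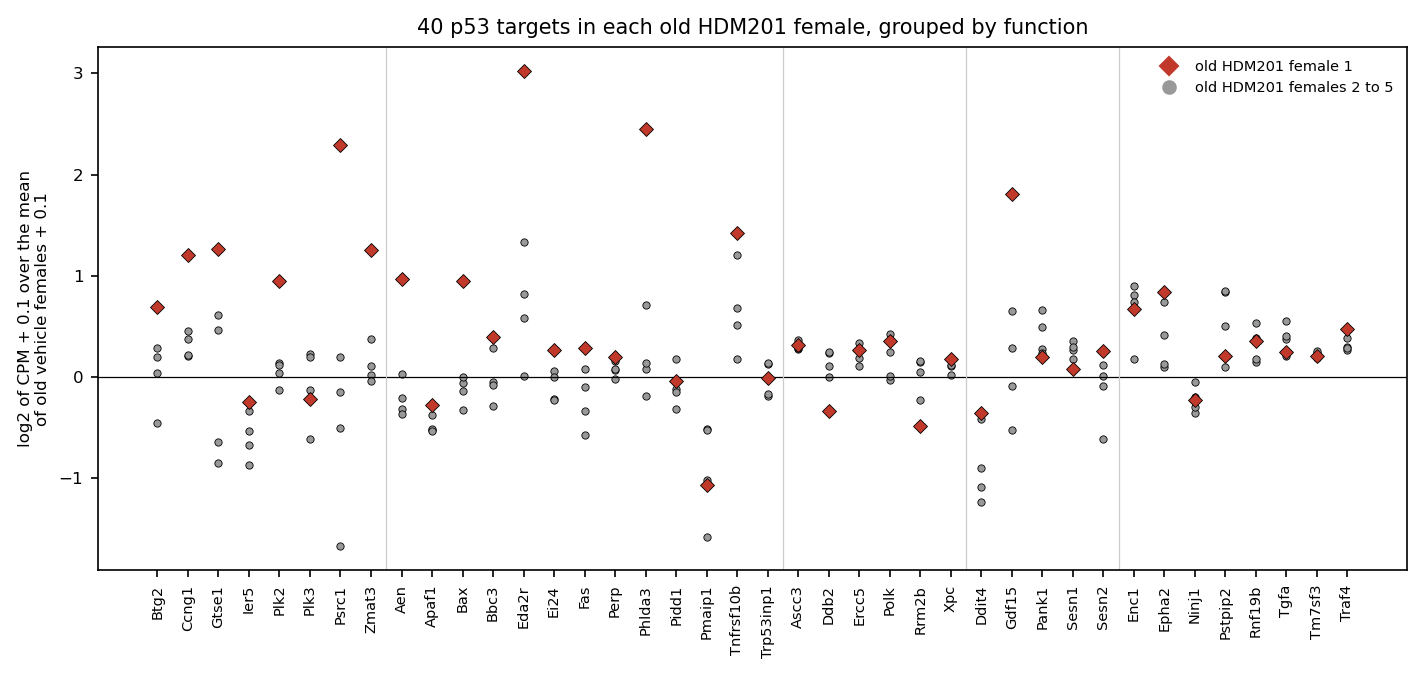
Vertical axis: log2 of the CPM + 0.1 of each old HDM201 female over the mean of the 4 old vehicle females + 0.1, for the 40 members (horizontal axis), with vertical lines between the 5 classes. Red diamonds are old HDM201 female 1 and gray circles are old HDM201 females 2 to 5. The diamonds lie far above the circles for Phlda3 (16.5 against at most 4.90 CPM) and Eda2r (6.42 against at most 1.91 CPM), and within the range of the circles for 6 of 8 growth factor genes and 3 of 6 repair genes.

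The first comparison asked which p53 targets the MDM2 inhibitor raised in old female liver. Of the 39 members tested, 4 were called higher (10.3%) and 2 lower (5.13%) after HDM201, against 2.35% higher and 2.9% lower among all 14445 genes tested. The members called higher were Ascc3, Enc1, Traf4 and Tm7sf3, and those called lower were Ddit4 and Ier5. The log2 fold change was positive in 27 of 39, with a median of 0.20 against 0.001 over all genes. The 2 groups of mice did not overlap in 11 of 39 members (28.2%), against 10.2% of all genes, and 19 members had an unadjusted p under 0.05 (48.7%), as did 3247 genes in all (22.5%). DESeq2 called 14 members (9 higher and 5 lower, 35.9%), the 6 of edgeR among them, against 9.2% of all genes, and edgeR with all 6 groups in 1 fit called 2 (5%), against 1.36%, of which 1 was among the 6. Psrc1 had too few counts to be tested.

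Among the DNA repair genes, Ascc3, a helicase that opens DNA for alkylation repair (chr10:50592669-50851485, GRCm38), rose in a narrow and even way. It read 15.8, 15.3, 16.2 and 16.4 CPM in old vehicle females 1 to 4 and 19.8, 19.2, 20.5, 19.4 and 20.0 CPM in old HDM201 females 1 to 5. Every treated mouse was above every vehicle mouse (log2 fold change 0.29, SE 0.06, FDR 0.0194), and mouse 1 was in the middle of its group. The other 5 repair genes were not called. Ercc5, the nuclease that cuts beside DNA lesions, had a log2 fold change of 0.21 (FDR 0.109), the damage sensor Xpc 0.10 (FDR 0.466), the translesion polymerase Polk 0.20 (FDR 0.424), Ddb2, the damaged DNA binding protein, 0.05 (FDR 0.880) and Rrm2b, the p53-inducible ribonucleotide reductase subunit, -0.07 (FDR 0.850). Xpc, the most abundant member of the class, read 21.6, 17.3, 20.5 and 19.0 CPM in vehicle and 22.1, 19.8, 21.1, 22.0 and 21.2 CPM in treated females, and the ranges overlapped.

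The class of growth factor signalling, adhesion and other roles held 3 of the 4 members called higher. Enc1, an actin-binding adaptor of a ubiquitin ligase (chr13:97241105-97253034), read 7.43, 8.77, 8.30 and 7.45 CPM in vehicle and 12.8, 9.02, 14.1, 14.96 and 13.4 CPM in treated females. All treated females were above all vehicle females, with mouse 2 closest to them (log2 fold change 0.67, SE 0.14, FDR 0.0198). Traf4, an adaptor of TNF receptor family signalling (chr11:78158499-78165589), read 42.9, 45.2, 47.5 and 37.2 CPM against 59.9, 52.9, 52.1, 52.8 and 56.4 CPM, again without overlap (log2 fold change 0.32, SE 0.08, FDR 0.0392). Tm7sf3, a membrane protein that restrains the unfolded protein response (chr6:146602352-146642824), was the tightest of the 3, at 87.1, 84.7, 85.5 and 87.4 CPM against 99.6, 100.1, 101, 98.3 and 103 CPM (log2 fold change 0.20, SE 0.05, FDR 0.0400).

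The other 5 members of this class were not called. Among them were the EGF receptor ligand Tgfa at 0.35 (SE 0.10, FDR 0.0703), the ephrin receptor Epha2 at 0.46 (SE 0.15, FDR 0.102), the actin regulator Pstpip2 at 0.52 (SE 0.16, FDR 0.0837) and the ubiquitin ligase Rnf19b at 0.31 (SE 0.09, FDR 0.0768). Ninj1 was the 1 member of the class with a negative value, at -0.25 (SE 0.07, FDR 0.0670). Its levels were 152, 167, 151 and 163 CPM in vehicle and 135, 152, 137, 123 and 128 CPM in treated females, and the groups overlapped through treated mouse 2.

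Both members called lower are induced by stress or mitogens as well as by p53. Ddit4, the REDD1 protein that inhibits mTORC1 (chr10:59949669-59951834), read 19.3, 19.6, 18.7 and 15.1 CPM in vehicle and 14.1, 13.6, 9.69, 8.503 and 7.66 CPM in treated females (log2 fold change -0.79, SE 0.17, FDR 0.0264). The ranges did not overlap, and treated mice 1 and 2 were nearest to vehicle. Ier5, an immediate early gene that acts on heat shock factor signalling (chr1:155096361-155099636), read 14.6, 17.7, 15.3 and 19.3 CPM and 14.1, 11.5, 10.4, 13.2 and 9.07 CPM, with every treated mouse below every vehicle mouse (log2 fold change -0.54, SE 0.13, FDR 0.0377).

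None of the 13 apoptosis genes was called in treated females. Their log2 fold changes were positive in 7 of 13, against 50.2% of all genes, with a median of 0.05, and the unadjusted counts over all members are given above. The death receptor Tnfrsf10b, at 0.422, 0.401, 0.332 and 0.469 CPM in vehicle and 1.25, 0.711, 0.624, 1.07 and 0.470 CPM in treated females, did not overlap between groups but was near the limit of counting (log2 fold change 0.98, SE 0.34, FDR 0.111). The BH3-only gene Pmaip1, which encodes NOXA, and the apoptosome scaffold Apaf1 were below vehicle in every treated female, at log2 fold changes of -1.003 (FDR 0.0629) and -0.48 (FDR 0.0541).

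The classical effectors Bax and Bbc3, which encodes PUMA, had log2 fold changes of 0.14 (FDR 0.759) and 0.05 (FDR 0.884). For the death receptor Fas the value was -0.13 (FDR 0.700), and its levels were 18.2, 19.1, 13.7 and 17.9 CPM in vehicle and 21.0, 18.2, 13.6, 16.03 and 11.5 CPM in treated females, with overlap. Phlda3 was at 3.53, 2.14, 3.26 and 2.86 CPM and Eda2r at 0.580, 0.579, 0.940 and 0.703 CPM in vehicle females, and against the treated values given above their log2 fold changes were 1.02 (SE 0.52, FDR 0.269) and 1.68 (SE 0.61, FDR 0.128). The remaining apoptosis members, Perp, Pidd1 (the PIDDosome scaffold), Aen (an exonuclease), Trp53inp1 and Ei24, lay between -0.10 and 0.09.

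In the arrest class only Ier5 was called. Ccng1, a feedback regulator that recruits a phosphatase to MDM2, was above vehicle in all 5 treated females but varied through mouse 1 (log2 fold change 0.52, SE 0.18, FDR 0.113). The RNA-binding protein gene Zmat3 had a value of 0.41 (SE 0.24, FDR 0.346), the antiproliferative gene Btg2 0.18 (SE 0.18, FDR 0.595), the stress kinase gene Plk2 0.25 (SE 0.19, FDR 0.479) and the p53-binding spindle gene Gtse1 0.44 (SE 0.58, FDR 0.708). Plk3, the most abundant of the class, read 52.9, 48.9, 86.8 and 46.5 CPM in vehicle and 50.6, 38.4, 68.6, 53.6 and 67.1 CPM in treated females, with full overlap (log2 fold change -0.09, SE 0.20, FDR 0.824). In the metabolic class, Sesn1, a sestrin that inhibits mTORC1, lay above vehicle in every treated female without being called (log2 fold change 0.22, SE 0.07, FDR 0.0955), Pank1 had a value of 0.37 (SE 0.11, FDR 0.0854), Gdf15 0.65 (SE 0.40, FDR 0.374) and the related Sesn2 -0.05 (SE 0.15, FDR 0.875).

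**Figure D2:**
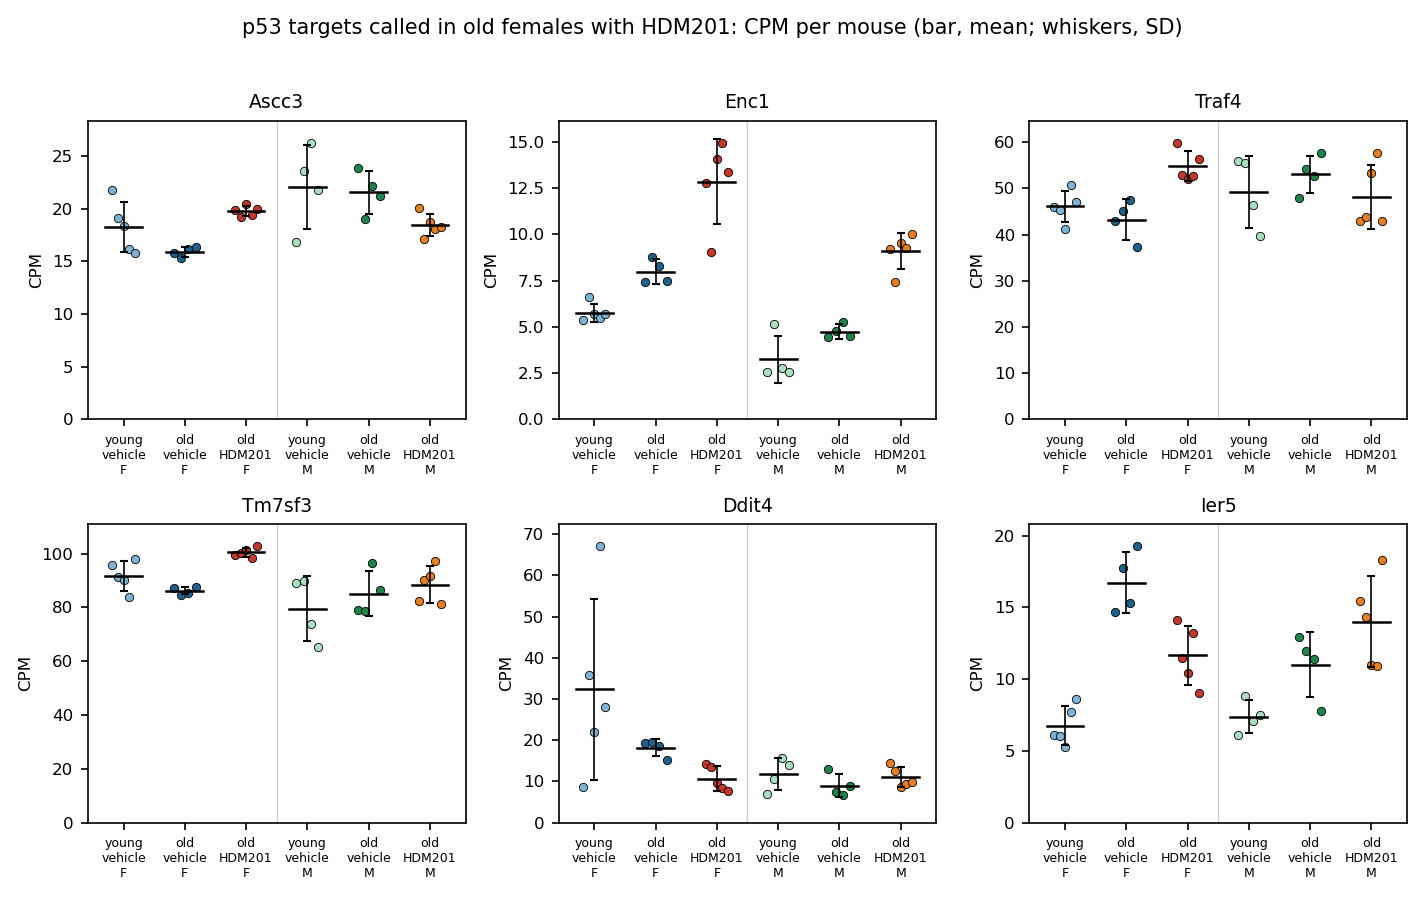
CPM of the 6 members called after HDM201 in old females, in every mouse of the 6 groups (F, females; M, males). Points are mice, bars the group means and whiskers the SD. In females the old vehicle and old HDM201 points do not overlap for any of the 6 genes, with Enc1 at 7.43 to 8.77 CPM in vehicle and 9.02 to 14.96 CPM in treated mice.

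Without old HDM201 female 1, 5 of 39 members were called: Ccng1 (log2 fold change 0.30, SE 0.07, FDR 0.0479), Ascc3 and Enc1 higher (7.69%), and Ddit4 and Ier5 lower (5.13%), against 2.31% of all genes higher and 2.58% lower in that fit. Traf4 and Tm7sf3 then had FDRs of 0.0582 and 0.0535. The number of positive members became 25 and their median 0.09, and the log2 fold change went from 1.02 to 0.22 for Phlda3, from 1.68 to 0.83 for Eda2r and from 0.65 to 0.13 for Gdf15. The count of called members depended on single mice in both groups. Without old vehicle female 1 it was 3, without old vehicle female 2 it was 0, without old vehicle female 3 it was 7 and without old vehicle female 4 it was 2. Without old HDM201 female 2 it was 4, without old HDM201 female 3 it was 2, without old HDM201 female 4 it was 1 and without old HDM201 female 5 it was 3. The share of all genes called moved as well, from 1.27% without old vehicle female 2, 1.8% without old vehicle female 4 and 1.82% without old HDM201 female 4 to 6.52% without old vehicle female 3.

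Averaged over the 36 members with a mean of at least 1 CPM, on the log2(CPM + 1) scale, old HDM201 female 1 was at 4.75, the other treated females at 4.35 to 4.48 and old vehicle females at 4.28 to 4.35. Treated minus vehicle was 0.15 (SE 0.08), and 0.07 (SE 0.03) without mouse 1. By class, the growth factor and adhesion mean was 0.32 (SE 0.04) higher and the repair mean 0.14 (SE 0.03) higher in treated females, without overlap of the groups, and these differences were 0.31 and 0.15 without mouse 1. The arrest and apoptosis means differed by 0.10 (SE 0.13) and 0.09 (SE 0.15), with overlap, and by -0.02 and -0.04 without mouse 1. For the metabolic class the difference was 0.05 (SE 0.10), and -0.03 without mouse 1. These means are descriptions and were not tested.

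The upstream genes of the pathway were followed from a list of 22 p53 regulators, of which 19 were tested in females. Mdm2, the target of the drug and of p53, was called higher (log2 fold change 0.33, SE 0.08, FDR 0.0350), as was Ube4b, a ubiquitin ligase that acts with MDM2 on p53 (log2 fold change 0.32, FDR 0.0239), and 0 were called lower. Mdm2 read 27.7, 25.4, 26.3 and 26.4 CPM in vehicle and 38.1, 33.7, 29.9, 32.9 and 33.4 CPM in treated females, without overlap. Trp53 itself had a log2 fold change of 0.10 (FDR 0.469) and Mdm4, the p53 inhibitor related to MDM2, 0.01 (FDR 0.957).

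Of 21 further p53 targets tested outside the 40, 2 were called higher (Mdm2 and the thiamine transporter Slc19a2) and 0 lower, with a median log2 fold change of -0.01. Cdkn1a, left out of the 40 by choice, read 10.5, 22.3, 14.99 and 20.2 CPM in vehicle and 52.3, 13.01, 6.15, 18.5 and 4.75 CPM in treated females. Apart from mouse 1 the treated values reached no higher than vehicle, and the log2 fold change was 0.12 (SE 0.57, FDR 0.925).

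Markers of other cells moved in the same comparison. Of 13 macrophage and Kupffer cell markers, 10 were called lower and none higher in treated females (median log2 fold change -1.05), and their summed level was 494.5 to 1016 CPM in vehicle and 303.5 to 496 CPM in treated females, with none of the 13 at 0 in either group. Of 5 cholangiocyte markers 2 were called higher, Epcam and Spp1, with sums of 49.6 to 71.2 CPM in vehicle and 84.0 to 150.1 CPM in treated females. Summed hepatocyte markers overlapped, at 95174 to 121089 and 100615 to 134554 CPM. Of 9 mitotic genes tested none had a positive value (median -0.68) and 1, Top2a, was called lower, with sums over the list of 11.1 to 15.4 CPM in vehicle and 5.53 to 10.5 CPM in treated females, without overlap. Of 6 B and plasma cell markers 1, Cd79b, was called lower (median -0.85), with sums of 17.7 to 33.7 and 10.1 to 20.2 CPM. Of 5 erythroid markers 0 were called and 0 had a positive value (median -1.34). Their sums were 164 to 251 CPM in vehicle and 17.5 to 165 CPM in treated females, with overlap. By edgeR 0 of 8 immediate early genes were called. The part of these cell types in the values of the p53 targets was not tested.

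The same question in old males gave no call. By edgeR 0 of 40 members passed the test after HDM201, against 0% higher and 0.00709% lower among 14109 genes, of which 1 was called in all. At an unadjusted p under 0.05 there were 12 members (30%) and 1710 genes (12.1%), and DESeq2 called 2 members (5%), against 1.21% of all genes. Without old HDM201 male 2 the edgeR count was 1 (2.56%), against 0.0143% of all genes. The log2 fold change was positive in 25 of 40, with a median of 0.07 against 0.01 over all genes, and the groups did not overlap in 4 of 40 (10%), against 4.03% of all genes.

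The 4 members without overlap were Enc1, Ccng1 and Zmat3 above vehicle and Ercc5 below it. Enc1 read 4.43, 4.75, 5.28 and 4.51 CPM in old vehicle males 2 to 5 and 9.18, 7.44, 9.52, 9.28 and 10.0 CPM in old HDM201 males 1 to 5, with a wide gap (log2 fold change 0.95, SE 0.13, FDR 0.0974). Zmat3 had a value of 0.51 (SE 0.12, FDR 0.221), with 8.55 to 9.38 CPM in vehicle and 10.5 to 15.9 CPM in treated males, and Ccng1 of 0.24 (SE 0.08, FDR 0.309), with 25.3 to 29.7 and 30.2 to 36.0 CPM. Ercc5 read 18.7, 19.8, 18.4 and 20.6 CPM in vehicle and 16.4, 17.0, 17.7, 16.9 and 14.9 CPM in treated males (log2 fold change -0.22, SE 0.08, FDR 0.317).

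The members called in females had these values in males. Ascc3 read 23.9, 19.0, 22.2 and 21.2 CPM in vehicle and 20.0, 17.1, 18.7, 18.1 and 18.3 CPM in treated males, overlapping through vehicle male 3 and treated male 1 (log2 fold change -0.22, SE 0.09, FDR 0.364). Ddit4 read 13.03, 7.42, 6.66 and 8.81 CPM and 14.5, 12.5, 8.71, 9.33 and 9.96 CPM (log2 fold change 0.30, SE 0.22, FDR 0.588), and Ier5 12.9, 11.9, 11.4 and 7.75 CPM and 15.5, 14.3, 10.96, 10.9 and 18.3 CPM (log2 fold change 0.36, SE 0.19, FDR 0.468). Both overlapped between groups, and vehicle male 2 had the highest vehicle value of each. Traf4 had a log2 fold change of -0.13 (FDR 0.645), with 47.8, 54.1, 52.6 and 57.6 CPM in vehicle and 42.9, 43.9, 53.4, 57.8 and 43.0 CPM in treated males. For Tm7sf3 it was 0.06 (FDR 0.804), with 78.6 to 96.6 CPM and 81.2 to 97.3 CPM, and neither gene separated the groups.

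By class, 7 of 8 arrest genes and 10 of 13 apoptosis genes had positive values in males (medians 0.31 and 0.12), as had 2 of 6 repair genes, 1 of 5 metabolic genes and 5 of 8 growth factor genes. Over all genes 52.8% were positive, and the classes were not tested. Phlda3 read 2.61, 1.56, 1.72 and 1.96 CPM in vehicle and 3.39, 3.42, 3.29, 4.48 and 2.42 CPM in treated males (log2 fold change 0.80, SE 0.23, FDR 0.266). The class mean of treated minus vehicle males was 0.16 (SE 0.07) for apoptosis and -0.08 (SE 0.03) for repair, with overlap. Single mice weighed on the male values too. Vehicle male 2 had the highest level of all 27 mice for Plk3 (172, 49.0, 48.2 and 35.5 CPM in old vehicle males 2 to 5), Btg2 and Trp53inp1, a p53-induced autophagy and stress protein, and the mean over all members (treated minus vehicle 0.08, SE 0.06) was 0.13 without it and 0.04 without vehicle male 3. Treated minus vehicle was not called for any of 20 p53 regulators, 21 further targets or 13 macrophage markers in males. Sums of B and plasma cell markers were 13.8 to 26.6 CPM in vehicle and 26.8 to 69.3 CPM in treated males. Those of erythroid markers were 286 to 1140 and 101 to 205 CPM, and neither list overlapped. Sums of macrophage markers overlapped, at 217 to 646 and 316 to 826 CPM. The part of these lists in the male values was not tested.

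Whether HDM201 acted differently in the sexes was tested as an interaction over the 4 old groups. Of 40 members 1 was called, in the direction of a more positive effect in females, against 0.0735% called in that direction and 0.0334% in the other among 14974 genes. That member was Ascc3, with a difference of the log2 fold changes of 0.52 (SE 0.09, FDR 0.0444). Ascc3 rose in females and had a negative value in males. The call was lost in a fit of all 6 groups, whereas DESeq2 called 8 members (20%), against 4.55% of all genes. The count was 0 without old vehicle females 1, 2 or 4, old HDM201 females 3, 4 or 5, old vehicle males 4 or 5, or old HDM201 males 1 or 5. In those fits 0% to 0.0471% of all genes were called, against 0.107% with all mice. The member count was 5 (12.5%) without old vehicle female 3, against 2.05% of all genes, and 4 (10%) without old vehicle male 2, against 0.416%. Without old HDM201 male 4 it was 6 (15%), against 1.93%. For Ercc5 and Apaf1 the FDR of the interaction was 0.0607 each, with differences of 0.44 and -0.90, and for Ier5 it was 0.0782 with -0.90. Old females and old males also differed in labelled age, which cannot be told apart from sex here.

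**Figure D3:**
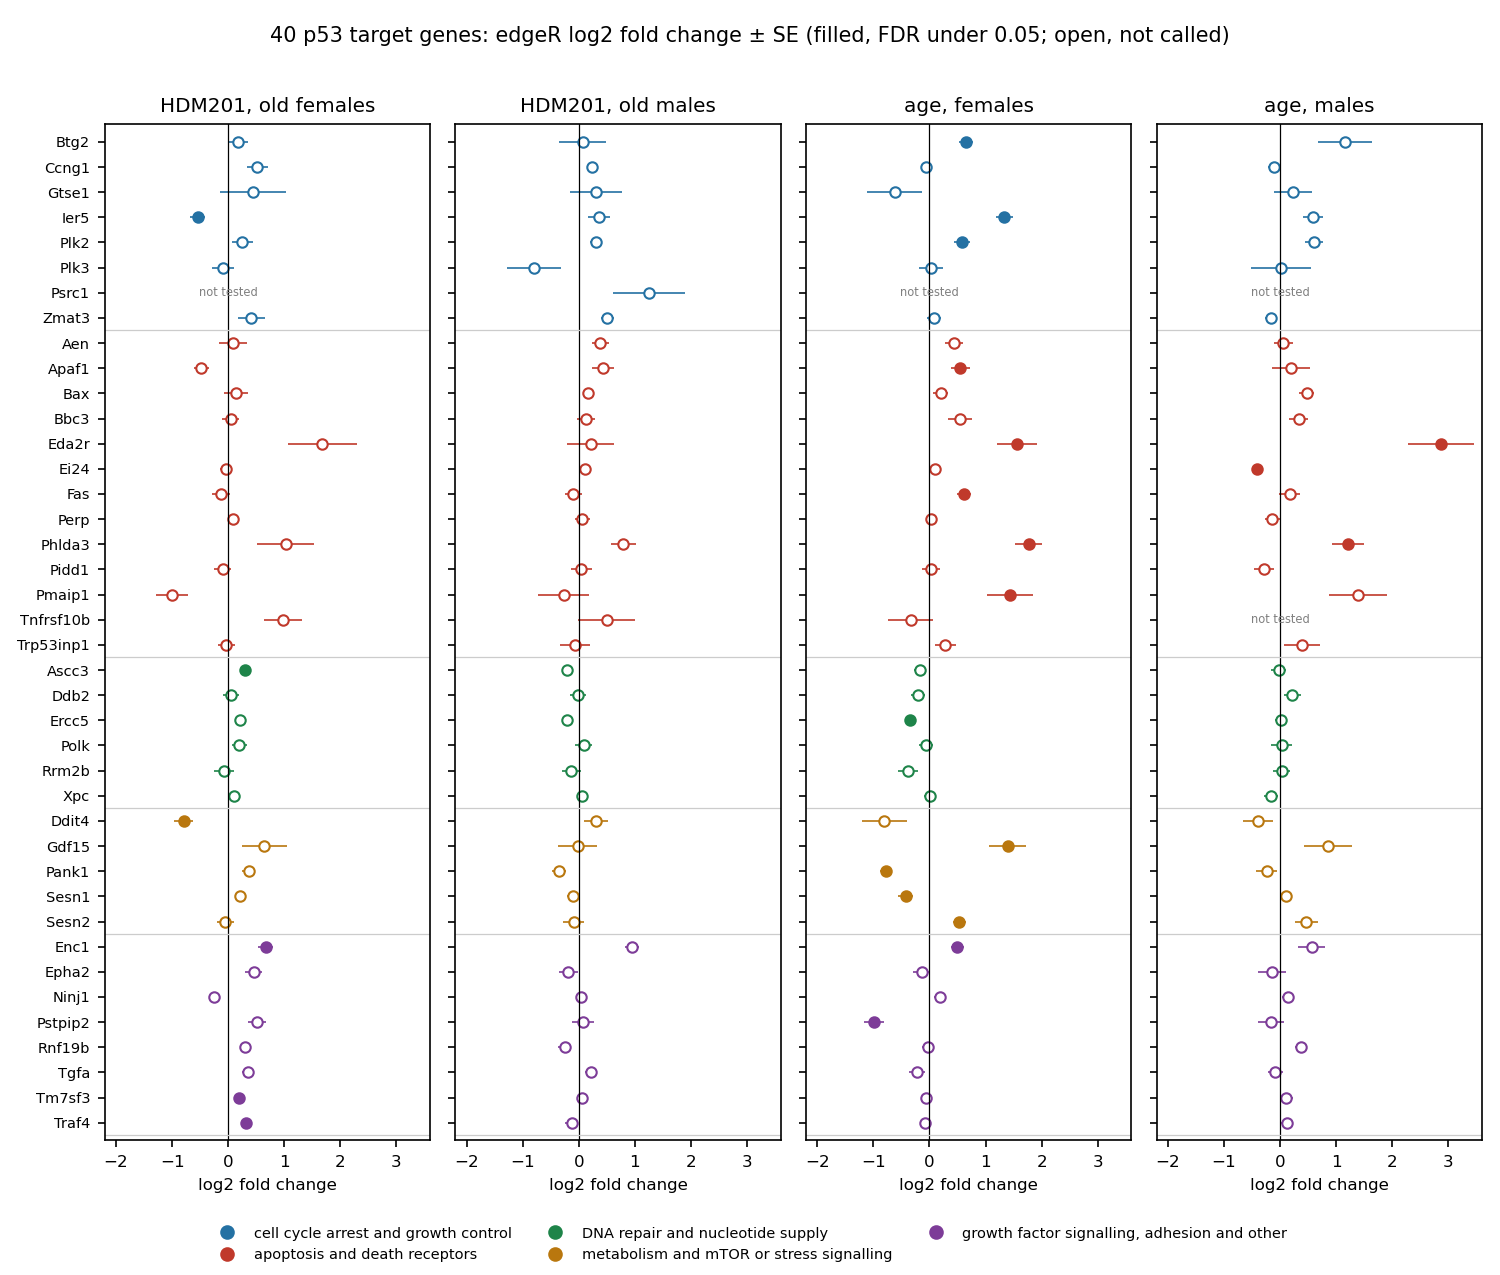
edgeR log2 fold change of each of the 40 members (rows, colored by class) after HDM201 in old females and old males and with age in females and males. Points are estimates, lines 1 SE on each side, and filled points passed the FDR of 0.05. After HDM201 6 members were called in females and 0 in males, and with age 15 were called in females and 3 in males.

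The largest number of calls came with age in females, where old vehicle mice were set against young vehicle mice. Of 39 members tested 11 were called higher (28.2%) and 4 lower (10.3%), in a comparison that called 16.8% of 14233 genes higher and 15% lower. The members called higher were Ier5, Phlda3, Btg2, Fas, Sesn2, Eda2r, Enc1, Gdf15, Plk2, Pmaip1 and Apaf1, and those called lower were Pank1, Pstpip2, Ercc5 and Sesn1. The log2 fold change was positive in 22 of 39 with a median of 0.03, against 0.01 over all genes, and the groups did not overlap in 11 members (28.2%), against 25.9% of all genes. At an unadjusted p under 0.05 by edgeR there were 17 members (43.6%), near the 42.6% of all genes. DESeq2 called 17 members (43.6%), against 33.7% of all genes. Substrain goes with age in each of these values and cannot be told apart from it. The libraries also differed between these groups: mitochondrial genes took 4.56% to 5.15% of the counts in young and 3.11% to 3.58% in old females, and TMM scaling factors were 0.929 to 0.971 and 1.03 to 1.07, neither with overlap, and their part in the values was not tested. The old vehicle mice are also the reference of the HDM201 comparison.

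Apoptosis genes made up 5 of the 11 members called higher, and 12 of the 13 apoptosis genes had positive values, against 51% of all genes, with a median of 0.43. Phlda3 (chr1:135766119-135769136) read 0.504, 1.03, 0.780, 1.03 and 0.981 CPM in young females 1 to 5 and 3.53, 2.14, 3.26 and 2.86 CPM in old females (log2 fold change 1.77, SE 0.24, FDR 2.82e-04). Eda2r (chrX:97333840-97377216) read 0.126, 0.205, 0.208, 0.230 and 0.392 CPM in young and 0.580, 0.579, 0.940 and 0.703 CPM in old females (log2 fold change 1.55, SE 0.36, FDR 0.00575). For both genes every old female was above every young female, although Eda2r stayed under 1 CPM throughout.

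Fas (chr19:34290666-34327772) rose less and with some overlap, from 11.7, 9.28, 11.6, 14.0 and 10.5 CPM to 18.2, 19.1, 13.7 and 17.9 CPM (log2 fold change 0.62, SE 0.13, FDR 0.00367), and old female 3 lay within the young range. Pmaip1 rose from 0.0575 to 0.946 CPM to 1.26 to 2.16 CPM (log2 fold change 1.43, SE 0.41, FDR 0.0186), and Apaf1 from 2.24 to 3.59 CPM to 3.93 to 4.499 CPM (log2 fold change 0.55, SE 0.17, FDR 0.0250), neither with overlap. Bax, Perp, Pidd1, Trp53inp1 and Ei24 lay between 0.03 and 0.28 and were not called. Bbc3 and Aen were not called either, at 0.55 (FDR 0.0675) and 0.43 (FDR 0.0559), and Tnfrsf10b was the 1 apoptosis gene with a negative value (-0.34, FDR 0.554).

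In the arrest class 3 of 7 tested genes rose. Ier5 read 6.11, 6.05, 5.25, 7.70 and 8.58 CPM in young and 14.6, 17.7, 15.3 and 19.3 CPM in old females, the lowest FDR of any member with age in females (log2 fold change 1.33, SE 0.15, FDR 8.28e-05). Btg2 (chr1:134075170-134079120) read 9.46, 10.8, 7.02, 10.0 and 10.3 CPM and 13.1, 15.1, 16.4 and 14.5 CPM (log2 fold change 0.66, SE 0.13, FDR 0.00218). Both were without overlap. Plk2 rose from 6.91 to 10.97 CPM to 10.6 to 13.2 CPM (log2 fold change 0.58, SE 0.14, FDR 0.00693), with old female 3 inside the young range. The remaining tested members of the class, Ccng1, Gtse1, Plk3 and Zmat3, had values from -0.62 to 0.09.

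The metabolic class moved in both directions. Pank1 (chr19:34806940-34879455) fell from 322, 342, 298, 282 and 326 CPM in young to 159, 182, 212 and 168 CPM in old females, without overlap (log2 fold change -0.78, SE 0.10, FDR 1.86e-04), and Sesn1 fell from 14.7 to 25.3 CPM to 14.0 to 14.3 CPM (log2 fold change -0.43, SE 0.13, FDR 0.0243). Sesn2 (chr4:132492032-132510501) rose from 10.1, 11.7, 10.4, 14.1 and 10.98 CPM to 15.5, 13.8, 18.5 and 17.7 CPM, with old female 2 below the highest young female (log2 fold change 0.54, SE 0.12, FDR 0.00533). Gdf15 rose from 2.76 to 10.1 CPM to 9.44 to 17.2 CPM (log2 fold change 1.39, SE 0.33, FDR 0.00645), with young female 1, at 10.1 CPM, inside the old range. Ddit4 varied widely among young females, at 8.57, 35.8, 22.1, 67.1 and 28.0 CPM, and was not called (log2 fold change -0.80, SE 0.40, FDR 0.141).

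In the repair class Ercc5 (chr1:44147744-44181260) fell from 21.2, 21.6, 23.7, 22.8 and 22.8 CPM to 18.2, 16.5, 18.8 and 16.4 CPM, with all young females above all old ones (log2 fold change -0.34, SE 0.08, FDR 0.00604), and 5 of the 6 repair genes had negative values (median -0.19). In the growth factor class, Pstpip2 fell from 46.5, 65.8, 29.9, 38.9 and 49.9 CPM to 23.4, 19.6, 27.1 and 21.7 CPM (log2 fold change -0.99, SE 0.19, FDR 0.00195), and Enc1 rose from 5.36, 6.61, 5.67, 5.46 and 5.69 CPM to 7.43, 8.77, 8.30 and 7.45 CPM (log2 fold change 0.49, SE 0.11, FDR 0.00607), both without overlap. Tgfa, Epha2, Ninj1, Tm7sf3, Traf4 and Rnf19b lay between -0.22 and 0.18 and were not called.

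The class means followed these calls. Old minus young was 0.38 (SE 0.06) for the arrest class and 0.36 (SE 0.06) for the apoptosis class, both without overlap of the groups. It was -0.19 (SE 0.05) for repair, -0.12 (SE 0.04) for the growth factor class and 0.004 (SE 0.10) for metabolism, all with overlap. Over all members it was 0.12 (SE 0.03).

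Of 20 p53 regulators tested with age in females 3 were called higher (Cdkn2a, Hipk2 and Usp7) and 2 lower (Atr and Ube4b). Of 21 further targets 3 were called higher (Cdkn1a, Dram1 and Thbs1) and 5 lower. Cdkn1a read 1.07, 4.61, 7.18, 10.9 and 3.38 CPM in young females (log2 fold change 1.68, SE 0.41, FDR 0.00853). In the same comparison 12 of 13 macrophage markers were called higher (median 1.19, sums of 301.9 to 444 CPM in young and 494.5 to 1016 CPM in old females), as were 5 of 6 B and plasma cell markers, 5 of 8 mitotic genes and 5 of 7 immediate early genes. Sums of the B and plasma cell markers were 3.91 to 5.52 and 17.7 to 33.7 CPM, and those of the immediate early genes 66.0 to 97.5 and 82.6 to 152 CPM. Their part in the values of the p53 targets was not tested.

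**Figure D4:**
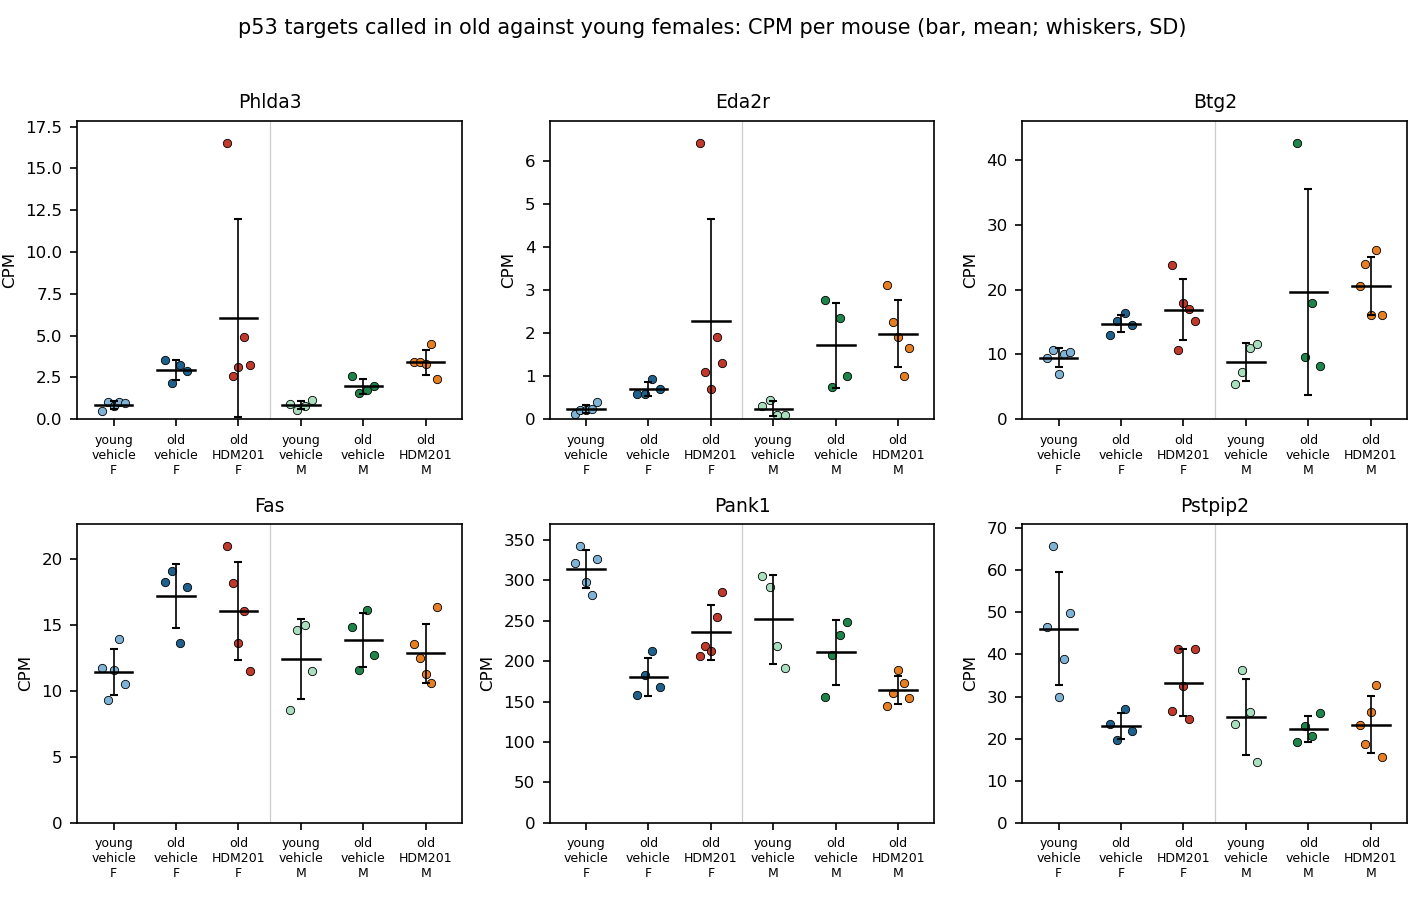
CPM of 6 members called with age in females, in every mouse of the 6 groups (F, females; M, males). Points are mice, bars the group means and whiskers the SD. Phlda3 was at 0.504 to 1.03 CPM in young females and 2.14 to 3.53 CPM in old vehicle females, and Pank1 at 282 to 342 CPM against 159 to 212 CPM.

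With age in males, 3 of 38 tested members were called: 2 higher (5.26%), against 2.76% of 13755 genes, and 1 lower (2.63%), against 0.931%. Eda2r read 0.302, 0.457, 0.109 and 0.0905 CPM in young and 2.76, 0.753, 2.35 and 1.01 CPM in old males (log2 fold change 2.87, SE 0.59, FDR 0.0300), and Phlda3 read 0.906, 0.571, 0.763 and 1.13 CPM and 2.61, 1.56, 1.72 and 1.96 CPM (log2 fold change 1.22, SE 0.29, FDR 0.0496). Every old male was above every young male for both, and both had also risen in females. Ei24 fell from 195, 219, 237 and 206 CPM to 164, 159, 156 and 160.4 CPM, without overlap (log2 fold change -0.41, SE 0.09, FDR 0.0369).

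The groups did not overlap in 6 of 38 members (15.8%), against 13.7% of all genes. The other 3 were Plk2 at 0.61 (SE 0.16, FDR 0.0605), Bax at 0.48 (SE 0.14, FDR 0.0776) and Rnf19b at 0.38 (SE 0.10, FDR 0.0683), all above young. Values were positive in 26 of 38, with a median of 0.12 against -0.01 over all genes, and 10 members (26.3%) had an unadjusted p under 0.05, as had 21.9% of all genes. DESeq2 called 7 members (18.4%), against 9.52% of all genes, and edgeR with all 6 groups in 1 fit called 7 (17.5%), against 13.1%. The apoptosis mean was 0.22 (SE 0.08) higher in old males, without overlap, and the arrest mean 0.25 (SE 0.21) higher, with overlap. Btg2 read 5.44, 7.37, 10.96 and 11.7 CPM in young and 42.7, 9.62, 17.97 and 8.28 CPM in old males (log2 fold change 1.16, SE 0.49, FDR 0.2005), with vehicle male 2 far above the other old males. The count of called members was 0 without old vehicle males 2 or 4 or young males 3 or 4, and 1 without old vehicle male 3. In these fits, in that order, 2.28%, 1.03%, 1.36%, 1.27% and 2.6% of all genes were called, against 3.69% with all mice. Eda2r and Phlda3 had too few counts in young males (under 1.2 CPM) for small differences between mice to be read. For the other members named above with age in females, the values in males were Ier5 0.59 (FDR 0.0918), Fas 0.17 (FDR 0.636), Pank1 -0.24 (FDR 0.472), Pstpip2 -0.16 (FDR 0.725), Sesn2 0.47 (FDR 0.230) and Ercc5 0.02 (FDR 0.935). Of 13 macrophage markers 4 were called higher with age in males, as were 4 of 5 B and plasma cell markers tested (median 2.001) and 2 of 7 immediate early genes (median 1.19). Sums of the B and plasma cell markers were 3.87 to 5.43 CPM in young and 13.8 to 26.6 CPM in old males, without overlap, and the part of these lists was not tested.

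The interaction of sex and age called 1 of 39 members, in the direction of a more positive effect in females, against 2.02% called in that direction and 1.9% in the other among 14721 genes. That member was Ei24, which read 232, 192, 235, 257 and 229 CPM in young and 248.6, 212, 248 and 256 CPM in old females and fell in males as given above, with a difference of the log2 fold changes of 0.52 (SE 0.12, FDR 0.0324). For Ier5 the difference was 0.76 (FDR 0.0752), for Sesn1 -0.52 (FDR 0.0942) and for Pstpip2 -0.81 (FDR 0.148). Of the apoptosis genes 9 of 13 had a positive difference, and of the repair genes 1 of 6, against 50.1% of all genes. Classes this small were not tested. The count of called members was 0 without old vehicle females 1 or 4, old vehicle males 4 or 5, or young males 2 or 3. In those fits 1.39% to 2.67% of all genes were called, against 3.92% with all mice. The member count was 2 (5.13%) without young male 1, against 7.93% of all genes, and 2 (5.13%) without young female 3, against 5.14%.

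Young females and young males differed in 2 of 38 tested members, both higher in females (5.26%), against 5.63% of 13875 genes higher and 4.91% lower. By edgeR 0 members were lower, 10 members (26.3%) had an unadjusted p under 0.05, against 27.6% of all genes, and DESeq2 called 2 members in all (5.26%), against 15.3% of all genes. Enc1 read 5.36, 6.61, 5.67, 5.46 and 5.69 CPM in females and 2.54, 5.14, 2.78 and 2.53 CPM in males, without overlap (log2 fold change 0.82, SE 0.21, FDR 0.0300). Young male 2 was above the other 3 males and just under the lowest female. Pstpip2 read 46.5, 65.8, 29.9, 38.9 and 49.9 CPM and 23.6, 36.2, 26.3 and 14.4 CPM, with overlap through male 2 (log2 fold change 0.87, SE 0.25, FDR 0.0471). The count of called members was 0 without young males 1, 3 or 4 or young females 2 or 5, and 1 without young female 4. In these fits, in that order, 13.2%, 6.65%, 5.46%, 7.01%, 6.85% and 7.99% of all genes were called, against 10.5% with all mice. Macrophage markers were also higher in young females, with 8 of 12 called and sums of 301.9 to 444 CPM against 139.7 to 284 CPM, and their part was not tested. Enc1 was the 1 member whose groups were apart in 4 of the 5 comparisons between 2 groups, and its levels ran from 2.53 to 5.14 CPM in young males to 9.02 to 14.96 CPM in old HDM201 females.

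**Figure D5:**
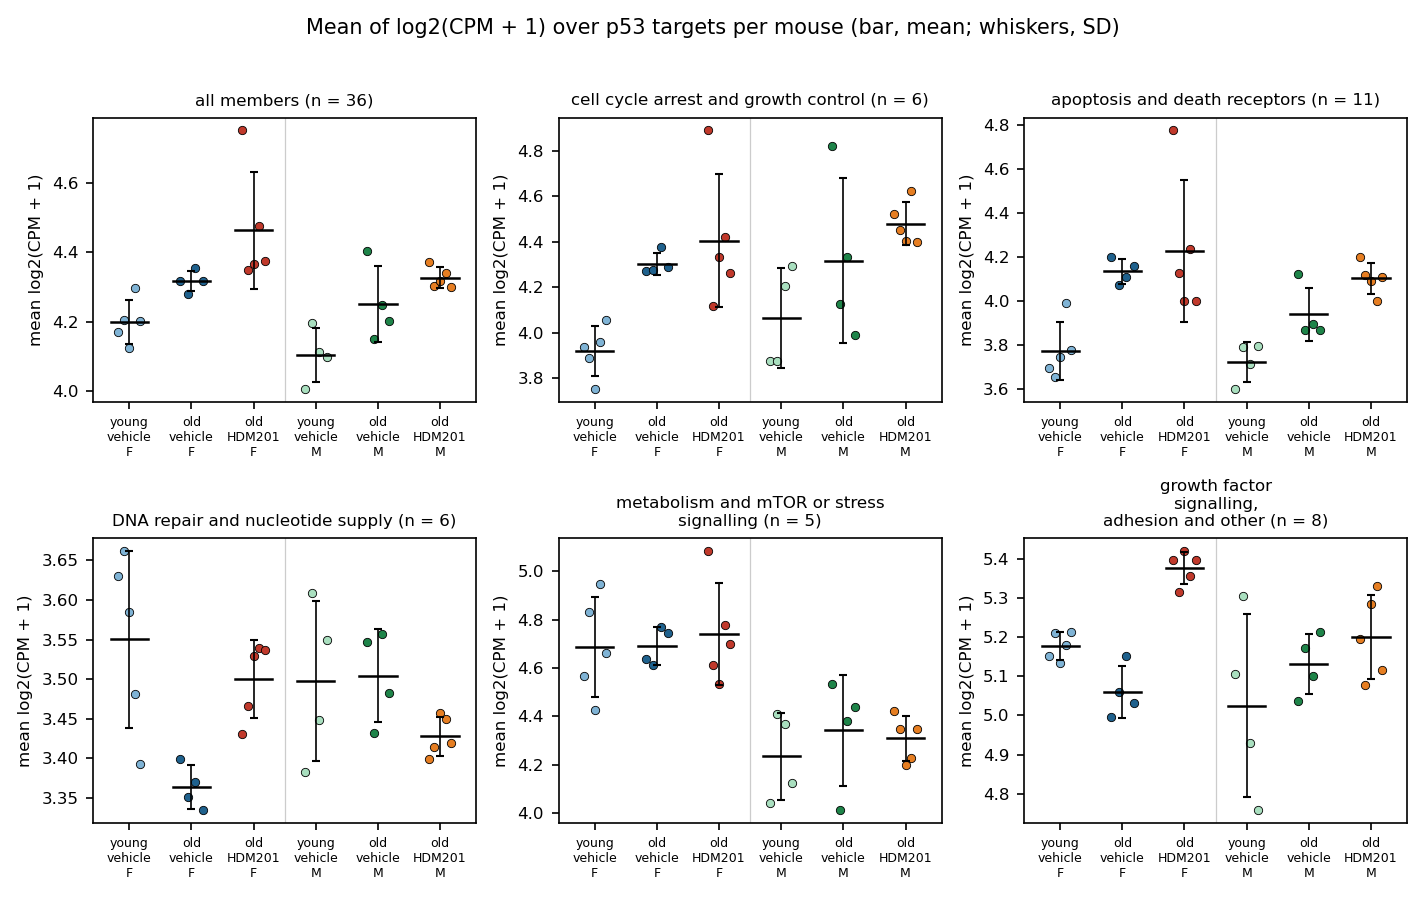
Mean of log2(CPM + 1) over the 36 members with at least 1 CPM on average and over the members of each class, in every mouse of the 6 groups (F, females; M, males). Points are mice, bars the group means and whiskers the SD, and the axes do not start at 0. Old HDM201 female 1, at 4.75 over all members, lay above all other mice, and in the growth factor class all 5 old HDM201 females lay above the old vehicle females.

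Some members share exons with another gene, and the strand setting of the counting is not given in the sources used here. Of the 8 members with any shared exon bases, Ddb2 shared the most, 23.8% with Acp2 on the opposite strand. Bax followed with 12.2%, shared with Gm45808 on the same strand, where the strand setting makes no difference. The others, all on the opposite strand, were Pstpip2 (8.8%), Rrm2b (8.04%), Ei24 (6.66%), Tm7sf3 (5.73%), Plk3 (3.32%) and Tgfa (1.82%). Whether reads in shared bases were left out or given to either gene is not known for these 8 members.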

How the data were processed

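Poly(A) RNA of whole mouse liver was sequenced by the authors. Reads were aligned by the authors to mm10 using STAR (2-pass), SAMtools served for filtering, and HTSeq gave the deposited raw counts per gene. Counts of 27 of the 29 labelled mice were analysed. Old vehicle male 1 and young vehicle male 5 were not analysed here. The deposited FPKM values, made by the authors with Cufflinks, were not used. The ages in the labels differ slightly from those in the study's methods, and the labelled ages are given.

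Raw counts of all genes were tested with the quasi-likelihood test of edgeR 4.0.16 (R 4.3.3) after filterByExpr (minimum count 10, minimum total 15) and TMM scaling, with only the groups compared in each fit and Benjamini-Hochberg adjustment over all genes tested. CPM used TMM library sizes over all mice. Means over members used log2(CPM + 1). DESeq2 1.42.0, RLE size factors, no filter, an FDR of 0.01, all 6 groups in 1 fit, a replicate block and leaving out each mouse were the alternatives. The authors named DESeq2 for their own tests. The scripts were tested on simulated data.

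Gene models were those of GENCODE vM21 on GRCm38, where 54673 of 55421 gene IDs were found with the same version, and promoter sequences were from RefSeq on GRCm38.p6. All 40 members are named. Values in every mouse are given for members called after HDM201 or in an interaction, for up to 10 members of lowest FDR with age in females and up to 5 each with age in males and between young sexes, and for the most abundant member of each class. 1 gene of the list of further p53 targets is not reported here, and the counts of that list are without it. The members and lists were chosen with earlier results of these data known. Depth of 16485900 to 23570458 counts per mouse limited members under 1 CPM.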

Additional observations from a re-analysis of the deposited data

Results flagged for a closer look

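In 144 sets of 4 or 5 mice of 1 group, a set being 1 gene or mean with values given by mouse, 9 (6.25%) held a mouse far from the others by Dixon's criterion, which chance gives in about 1 in 20. Phlda3 and Eda2r did so through old HDM201 female 1, at 16.5 CPM (next 4.90) and 6.42 CPM (next 1.91). Plk3 did so through old vehicle female 3 at 86.8 CPM (next 52.9) and old vehicle male 2 at 172 CPM (next 49.0). Enc1 did so through young vehicle female 2 at 6.61 CPM (next 5.69) and young vehicle male 2 at 5.14 CPM (next 2.78), and Xpc through young vehicle male 3, low at 16.5 CPM (next 22.2). The mean over the arrest class was apart in old vehicle female 3, at 4.38 (next 4.29, log2 scale), and that over the apoptosis class in old vehicle male 2, at 4.12 (next 3.90).

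A difference of effects between the sexes passed the interaction test of edgeR for 2 members. It was 0.52 on the log2 scale for Ei24 with age and 0.52 for Ascc3 with HDM201, each more positive in females. With age this was 1 of 39 members (2.56%), a share below the 3.92% of all genes called. With HDM201 it was 1 of 40 (2.5%), against 0.107% of all genes.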

How the results depend on the processing

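Counts of called members in treated females (6) were 0 at an FDR of 0.01, 14 by DESeq2, 2 with all 6 groups in 1 fit and 1 with a replicate block, and 0 to 7 when a mouse was left out. With the block the share was 2.56% of members, against 2.53% of all genes. In treated males (0) they were 2 by DESeq2, 1 without the filter, 1 with all groups, 0 with the block and 0 to 1 when a mouse was left out. The share without the filter was 2.5%, against 0.0784% of all genes, and with all groups 2.5%, against 0.0392%. With age in females (15) the counts were 12 to 18, 14 with the block (35.9%, against 24.3% of all genes) and 12 to 17 when a mouse was left out. At an FDR of 0.01 there were 12 (30.8%), against 17.7% of all genes. Without the filter there were 18 (45%), against 16.5% of 27913 genes, and by DESeq2 17 (43.6%), against 33.7%. When a mouse was left out, 24.5% to 32.0% of all genes were called. With age in males (3) they were 0 at an FDR of 0.01, 7 by DESeq2, 7 with all groups, 0 with the block and 0 to 2 when a mouse was left out. Between young sexes (2) they were 0 at an FDR of 0.01, 5 with all groups (12.5%, against 16.2% of all genes), 2 with the block and 0 to 3 when a mouse was left out. For the interaction of sex and HDM201 (1) they were 0 at an FDR of 0.01, 8 by DESeq2, 0 with all groups, 0 with the block and 0 to 6 when a mouse was left out. For that of sex and age (1) they were 0 at an FDR of 0.01, 2 by DESeq2 (5.13%, against 8.02% of all genes), 0 without the filter, 0 with the block and 0 to 2 when a mouse was left out.

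The member mean, old minus young females (0.118), was 0.171 with a pseudocount of 0.1 and 0.0888 SD units as a mean of z scores, and 0.0989 to 0.143 when a mouse was left out. When a mouse was left out the other means ran from 0.0735 to 0.175 (HDM201, females), 0.0415 to 0.126 (HDM201, males) and 0.0968 to 0.181 (age, males). Called members kept their sign in all 434 values of 28 gene and comparison pairs, and 127 of these values lost the call. These pairs were picked by their calls in the same counts, so a kept sign says little about them. Over all genes, the 758 calls in treated females became 110 at an FDR of 0.01, 1329 by DESeq2, 208 with all groups and 366 with the block.

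For mice with the same replicate number, deviations from the group means had correlations from -0.23 to 0.23. So few pairs cannot settle whether the numbers pair mice, and the main fits did not pair them. Counts of calls went down in some of these fits and up in others, and why they changed was not tested. Members under 1 CPM limit what this depth can show.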
